A study of Mus musculus with 6 samples.

Results

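The members described here were 8 transcription factor genes of myeloid commitment, namely Gfi1, Cebpe, Cebpd, Cebpb, Cebpa, Spi1, Irf8 and Irf4. They were taken by gene name from the 27198 genes of the deposited table, and all 8 were listed. Their RNA was measured in hematopoietic stem cells (HSCs) of bone marrow, which were sorted by surface markers as c-Kit+ and Sca-1+ cells without lineage markers, CD34 or CD135. The cells came from wild type, non-irradiated male C57BL/6 mice 8 to 10 weeks old. One group (Ctrl, 3 libraries) had received solvent, and the other (l-FA, 3 libraries) had received ferulic acid, a plant phenolic antioxidant, long term, injected into the peritoneum at 50 mg/kg each day for 30 days. How many mice stand behind a library is not given in the sources used here, so that n counts libraries and the p-values measure only the spread between them.

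Granulocytes and monocytes arise from a common progenitor, and the balance of a few transcription factors decides between them. Spi1 (the gene of PU.1) and Cebpa open the myeloid program and are needed for both fates. Gfi1, a transcriptional repressor, and Cebpe, which drives the genes of secondary granules, are required for neutrophil production, and Cebpb and Cebpd are C/EBP factors used in emergency and late granulocyte formation. Irf8 drives monocyte and dendritic cell production and restrains the neutrophil fate, and Irf4 is a related factor of the monocyte, dendritic and lymphoid lineages. Low expression of lineage genes in HSCs is called lineage priming.

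Each library held 19287735 to 20380610 counts, and 7 of the 8 members had enough counts to be tested among 16520 genes. Irf4 did not pass the filter on low counts. The median chi-square per gene between libraries of a group was 0.889 to 1.07, and between libraries of different groups 8.20 to 8.83, where counting error alone gives 0.455. Of all genes tested, 25.0% were called lower in l-FA and 25.5% higher (adjusted p under 0.05 in edgeR's quasi-likelihood test), and 5.10% were called lower and 6.68% higher when a fold change above 2 was also required. Scaling by total counts alone raised the share of higher genes among those called from 50.4% to 61.6%. The sort excluded cells with CD34 and CD135 on the surface, but their transcripts were abundant. Cd34 stood at place 295 and Flt3, the gene of CD135, at place 357 of all listed genes by the authors' mean FPKM (a level scaled by gene length and library size) in Ctrl, and Mpo, a granule enzyme of granulocyte-monocyte progenitors, stood at place 1.

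Of the 7 members tested, 5 fell with ferulic acid and none rose in edgeR's test. The strongest falls were in Gfi1, Cebpe and Cebpa, which were also past the 2-fold limit, and Cebpd and Spi1 fell by less. Cebpb and Irf8 did not pass. The count of 5 of 7 stands beside 25.0% of all genes called lower, and the count of 3 beside 5.10%. The count of 0 higher was also 0 at an unadjusted p under 0.05 and in DESeq2, but without the filter on low counts 1 of the 8 members, Irf4, was higher at an unadjusted p under 0.05. Every l-FA library lay below every Ctrl library for the same 5 members, where this held for 29.9% of all genes tested. Irf4 alone had every l-FA library above every Ctrl library. This held for 30.4% of all genes tested, to which Irf4 does not belong. In bulk samples, fewer cells of a type and less RNA per cell cannot be told apart.

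**Figure D1:**
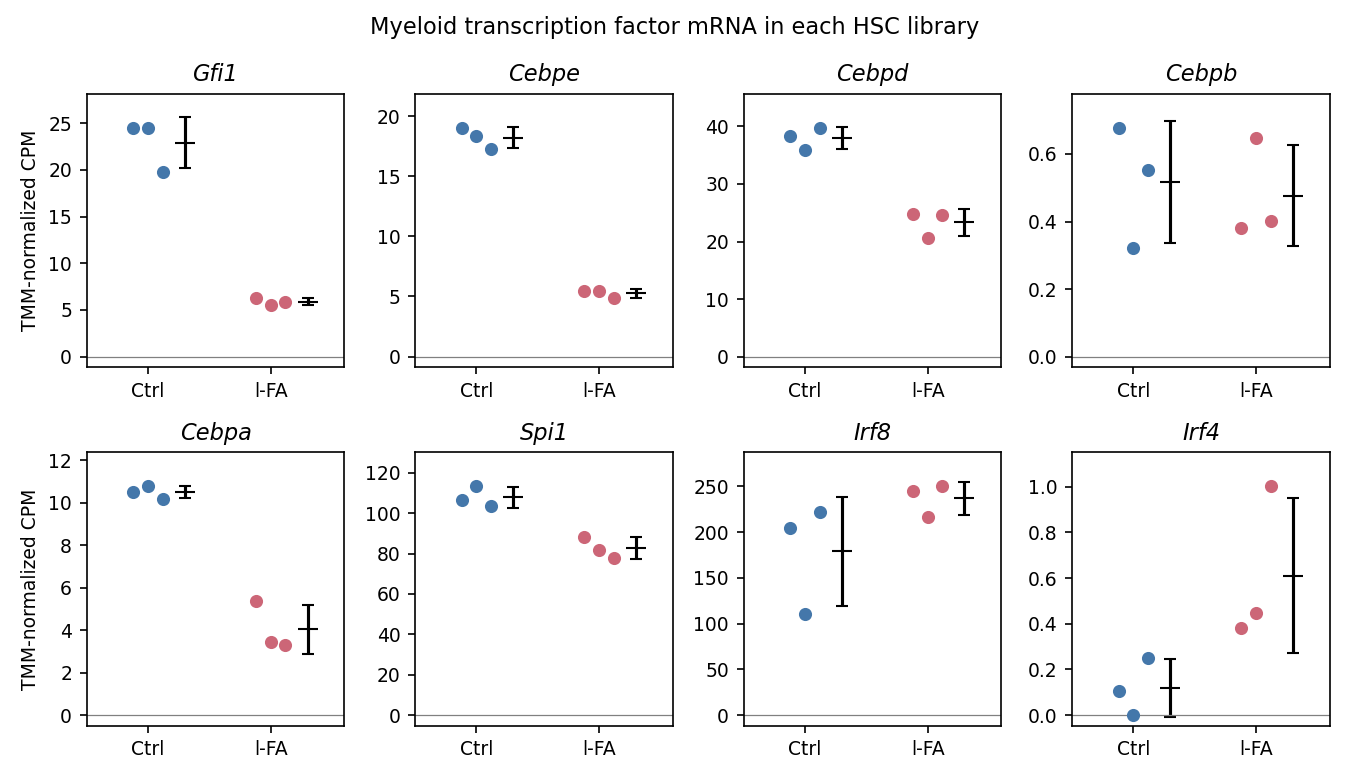
TMM-normalized CPM (counts scaled to a common library size) of the 8 members in each Ctrl (blue) and l-FA (red) library, with the mean and SD of 3 libraries in black at the right of the points. The groups are separate for Gfi1, Cebpe, Cebpd, Cebpa and Spi1, overlap for Cebpb and Irf8, and are separate with higher l-FA values for Irf4, which had at most 20 counts.

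Because Gfi1 and Cebpa fell together while Irf8 did not, the sequences before their start sites are shown, as the stretch in which binding sites of the members themselves can be looked for. The windows are the 250 bases upstream of the start in RefSeq on GRCm38.p6, another build than the GRCm39 of the counts, and windows were found for 5 of the 8 members, not for Spi1, Cebpd and Cebpe. Capitals mark matches to 4 short motifs searched on both strands, TTGCNNAA for C/EBP factors, GAGGAA for ETS factors such as PU.1, AANNGAAA for IRF factors and AAATCA for GFI1, in which N is any base. No match shared bases with a match to another motif.
Gfi1, chr5:107725806-107726055, minus strand: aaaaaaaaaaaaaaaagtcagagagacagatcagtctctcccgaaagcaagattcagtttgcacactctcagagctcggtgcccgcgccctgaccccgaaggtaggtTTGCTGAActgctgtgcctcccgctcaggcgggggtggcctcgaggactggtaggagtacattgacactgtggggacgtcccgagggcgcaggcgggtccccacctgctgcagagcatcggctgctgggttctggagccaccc
Cebpa, chr7:35119043-35119292, plus strand: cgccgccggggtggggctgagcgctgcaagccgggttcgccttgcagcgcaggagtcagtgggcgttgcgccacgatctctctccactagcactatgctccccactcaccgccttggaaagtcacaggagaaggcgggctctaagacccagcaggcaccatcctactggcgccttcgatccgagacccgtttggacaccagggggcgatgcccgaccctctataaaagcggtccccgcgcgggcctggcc
Irf8, chr8:120736108-120736357, plus strand: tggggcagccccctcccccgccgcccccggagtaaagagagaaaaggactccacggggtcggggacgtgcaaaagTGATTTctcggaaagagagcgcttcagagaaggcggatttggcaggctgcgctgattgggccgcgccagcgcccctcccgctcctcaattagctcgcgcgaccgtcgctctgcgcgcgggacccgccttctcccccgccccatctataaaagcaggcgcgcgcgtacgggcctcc
The Gfi1 window, at the more upstream of 2 listed starts, held 1 C/EBP match, 143 to 136 bases before the start. The Irf8 window, likewise the more upstream of 2, held 1 GFI1 match, 175 to 170 bases before the start. The Cebpa window held none of the 4. Of the windows not shown, that of Cebpb held none, that of Irf4 1 ETS match, and those at the second starts of Gfi1 and Irf8 1 IRF match and 1 GFI1 match. Over all 32851 windows of this length, 9.56% held the C/EBP motif, 23.3% the ETS motif, 21.3% the IRF motif and 12.4% the GFI1 motif, so a single match is common.

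Gfi1 (ENSMUSG00000029275, listed on chromosome 5 from 107864523 to 107873902), the repressor that holds back monocyte genes in neutrophil precursors, showed the largest fall of the members. It had 24.5, 24.5 and 19.7 TMM-normalized CPM in Ctrl libraries 1, 2 and 3 and 6.24, 5.48 and 5.86 in l-FA libraries 1, 2 and 3. The lowest Ctrl library was thus well above the highest l-FA library. The log2 fold change was -1.96 (standard error, SE, 0.11, edgeR adjusted p = 4.65e-05), so that 25.6% of the Ctrl level remained. Only 2.26% of all genes tested had a lower log2 fold change. The gene overlaps A430072P03Rik, which held 21 to 61 counts per library against 110 to 470 for Gfi1.

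Cebpe (ENSMUSG00000052435, chromosome 14, 54947817 to 54949631), the C/EBP factor of late neutrophil maturation, fell almost as far. Its CPM values were 19.0, 18.3 and 17.3 in Ctrl and 5.48, 5.43 and 4.86 in l-FA. Both groups were narrow and far apart. The log2 fold change was -1.79 (SE 0.086, edgeR adjusted p = 2.49e-05), which left 28.9% of the Ctrl level, and no other listed gene overlaps it.

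Cebpd (ENSMUSG00000071637, chromosome 16, 15705150 to 15708895), a C/EBP factor that appears late in granulocyte maturation and in inflammation, fell more weakly. It had 38.3, 35.9 and 39.8 CPM in Ctrl and 24.8, 20.5 and 24.6 in l-FA. The groups did not overlap, and the log2 fold change was -0.70 (SE 0.088, edgeR adjusted p = 0.000836), short of the 2-fold limit. It overlaps Spidr as listed, which held 1736 to 2070 counts and had a log2 fold change of -0.25 (SE 0.038, edgeR adjusted p = 0.00177); how shared reads were assigned is not given in the sources used here.

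Cebpb (ENSMUSG00000056501, chromosome 2, 167530835 to 167532338), the C/EBP factor of emergency granulopoiesis, was close to absent. It had 13, 6 and 11 counts in Ctrl and 8, 13 and 8 in l-FA, and the groups overlapped. Its log2 fold change of -0.12 has a 95% interval from -1.01 to 0.77 (adjusted p = 0.806 from edgeR), so that changes within these bounds were not excluded. It overlaps Peds1, which held 498 to 979 counts and had a log2 value of -0.64 between the groups (edgeR adjusted p = 0.0295), but passed in only 2 of the 6 fits that left out a library (highest adjusted p = 0.0969).

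Among the factors shared by both fates, Cebpa (ENSMUSG00000034957, chromosome 7, 34818718 to 34821353) fell clearly. This C/EBP factor is needed to form granulocyte-monocyte progenitors. It had 10.5, 10.8 and 10.2 CPM in Ctrl and 5.38, 3.44 and 3.30 in l-FA. The Ctrl libraries were close to each other, and l-FA library 1 was higher than the other two, with 113 counts against 69 and 66. The log2 fold change was -1.37 (SE 0.19, edgeR adjusted p = 0.00132) and -1.62 without l-FA library 1. The overlapping gene Gm45091 held 1 to 11 counts per library.

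Spi1 (ENSMUSG00000002111, chromosome 2, 90912735 to 90946101) fell least of the 5. It had 106, 113 and 103 CPM in Ctrl and 88.3, 81.8 and 77.7 in l-FA, and the groups did not overlap. The log2 fold change was -0.38 (SE 0.059, edgeR adjusted p = 0.00197), and 76.7% of the Ctrl level remained.

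Irf8 (ENSMUSG00000041515, chromosome 8, 121463097 to 121483433), the driver of the monocyte fate, showed no fall. It had 204, 111 and 222 CPM in Ctrl and 245, 217 and 250.1 in l-FA. Ctrl library 2 was at about the midpoint between 0 and the other Ctrl libraries, with 2070 counts against 3924 and 4414, and the highest Ctrl library was above the lowest l-FA library. The log2 fold change was 0.41 (SE 0.24, 95% interval -0.17 to 0.99, adjusted p = 0.21 from edgeR). Without Ctrl library 2 it was 0.15 (SE 0.073, adjusted p = 0.144), so the size of the difference rested on that library. Ctrl library 2 was also the lowest Ctrl library for Ly6c2, a monocyte surface antigen noticed after the values were seen, with 1437 counts against 3071 and 3215. The same held for Irf9, another interferon regulatory factor noticed afterwards, with 1200 counts against 2164 and 2108. Ctrl library 2 was the highest Ctrl library for monocyte genes other than Ly6c2, likewise noticed afterwards. These were Ccr2, with 328 counts against 306 and 269, and Ctss, with 653 against 543 and 600. The part of this library in the Irf8 result beyond these values was not tested.

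Irf4 (ENSMUSG00000021356, chromosome 13, 30933209 to 30950959) was near the detection limit in both groups. It had 2, 0 and 5 counts in Ctrl and 8, 9 and 20 in l-FA, so that every l-FA library was above every Ctrl library. Without the filter on low counts its log2 fold change was 2.27 (SE 0.78, edgeR adjusted p = 0.0695), which did not pass.

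The granulocyte drivers and the monocyte drivers were then set against each other. Of the 4 granulocyte drivers tested, 3 fell and 1 did not pass, with a median log2 fold change of -1.25. The only monocyte driver tested, Irf8, did not pass and had a positive value, and both shared factors fell with a median of -0.88. The median of all genes tested was 0.0035. The ratio of 2 genes within a library does not depend on depth or scaling. There were 11.98, 22.1 and 8.90 Gfi1 counts per 100 Irf8 counts in Ctrl and 2.55, 2.53 and 2.34 in l-FA. The groups did not overlap, and the mean log2 ratio differed by -2.42 (-2.91 ± 0.67 in Ctrl, -5.33 ± 0.067 in l-FA, SD, n = 3, exact two-sided permutation p = 0.1). Cebpe counts per 100 Irf8 counts were 9.30, 16.5 and 7.79 in Ctrl and 2.23, 2.51 and 1.94 in l-FA, a difference of -2.26 in the mean log2 ratio (exact permutation p = 0.1). Among the shared factors, Cebpa counts per 100 Spi1 counts were 9.89, 9.51 and 9.85 in Ctrl and 6.09, 4.20 and 4.25 in l-FA, a difference of -1.02 (exact permutation p = 0.1). The smallest p that 3 libraries against 3 allow is 0.1, and adjusted over the 3 ratios it was also 0.1, so none could reach 0.05. Without Ctrl library 2, the differences for Gfi1 and Cebpe against Irf8 were -2.06 and -1.94.

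**Figure D2:**
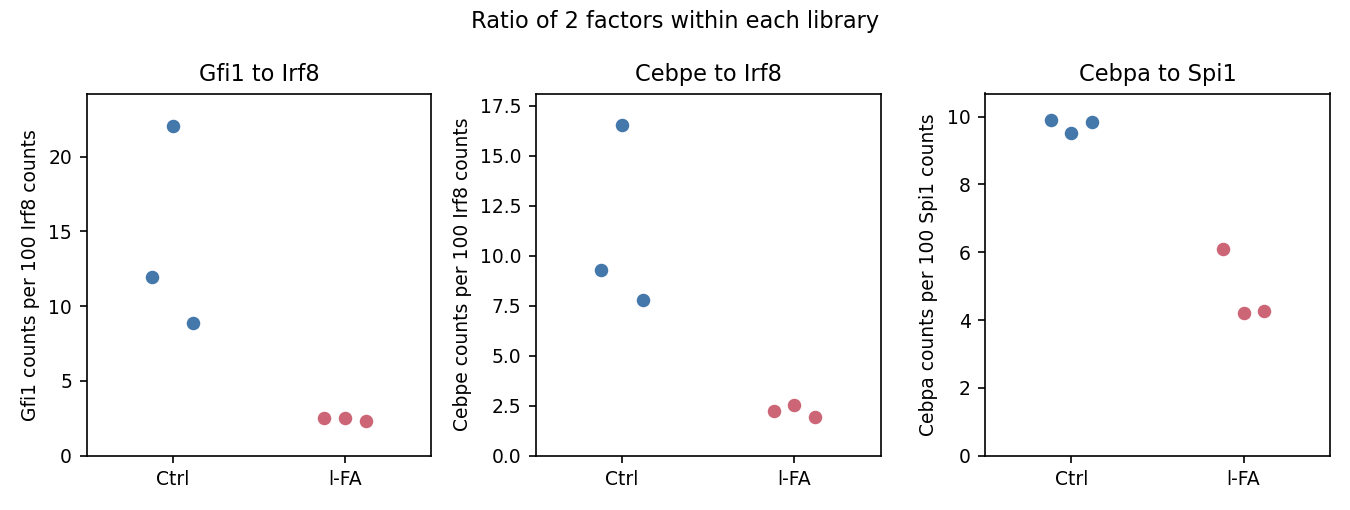
Counts of a first factor per 100 counts of a second one in each Ctrl (blue) and l-FA (red) library. For Gfi1 to Irf8 the Ctrl libraries lie from 8.90 to 22.1 and the l-FA libraries from 2.34 to 2.55, with Ctrl library 2 the highest.

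The order of the members by level, compared per gene length as the authors' FPKM, also differed between the groups. In Ctrl it was Spi1 (24.2 ± 1.01 FPKM, SD, n = 3), Irf8 (19.6 ± 6.60), Cebpe (14.3 ± 0.642), Cebpd (8.84 ± 0.503), Gfi1 (4.58 ± 0.529), Cebpa (2.13 ± 0.0483), Cebpb (0.334 ± 0.117) and Irf4 (0.0219 ± 0.0234). In Ctrl, Irf8 overlapped both its neighbours by library (12.1 to 24.4 FPKM, against 23.3 to 25.3 for Spi1 and 13.6 to 14.9 for Cebpe), and the other neighbours were apart. In l-FA, Irf8 came first (27.5 ± 2.13) and Spi1 next (19.6 ± 1.34), and their libraries did not overlap. Cebpd (5.73 ± 0.600) then stood above Cebpe (4.35 ± 0.296), also without overlap, followed by Gfi1 (1.24 ± 0.0836), Cebpa (0.867 ± 0.253), Cebpb (0.325 ± 0.101) and Irf4 (0.119 ± 0.0660). Gfi1 and Cebpa overlapped there, since the highest Cebpa library and the lowest Gfi1 library were both at 1.16 FPKM.

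Of the genes grouped here with the members by family or by name, only Cebpz fell, and it was grouped by name only. Of 6 further interferon regulatory factors tested, 3 rose, none fell and 3 did not pass, with a median log2 fold change of 0.44. Among all genes tested, 25.5% were called higher and 25.0% lower. Irf7, the factor of the type I interferon response, rose from 28.1 ± 2.35 to 61.7 ± 0.857 CPM (SD, n = 3), a log2 fold change of 1.14 (SE 0.066, edgeR adjusted p = 4.64e-05). Irf5, a factor of inflammatory macrophages, rose by 1.08 on the log2 scale. Gfi1b, the relative of Gfi1 that works in erythroid and megakaryocyte cells and that Gfi1 is known to repress, rose from 38.4 ± 0.641 to 51.9 ± 3.06 CPM (0.44 on the log2 scale, SE 0.054, edgeR adjusted p = 0.00082). Spib, the closest relative of Spi1 and a B cell and plasmacytoid dendritic cell factor, was named after its values were seen. It had 5, 6 and 11 counts in Ctrl and 30, 37 and 29 in l-FA, a log2 fold change of 2.03 (SE 0.29, edgeR adjusted p = 0.00153). Irf5 and Irf7 each overlap another listed gene. The further C/EBP gene Cebpg and the gene Cebpz had log2 fold changes of 0.33 (adjusted p = 0.0869) and -0.37 (adjusted p = 0.000386, both edgeR). Of these only Cebpz passed, though Cebpg passed too in DESeq2 and with scaling by total counts alone.

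**Figure D3:**
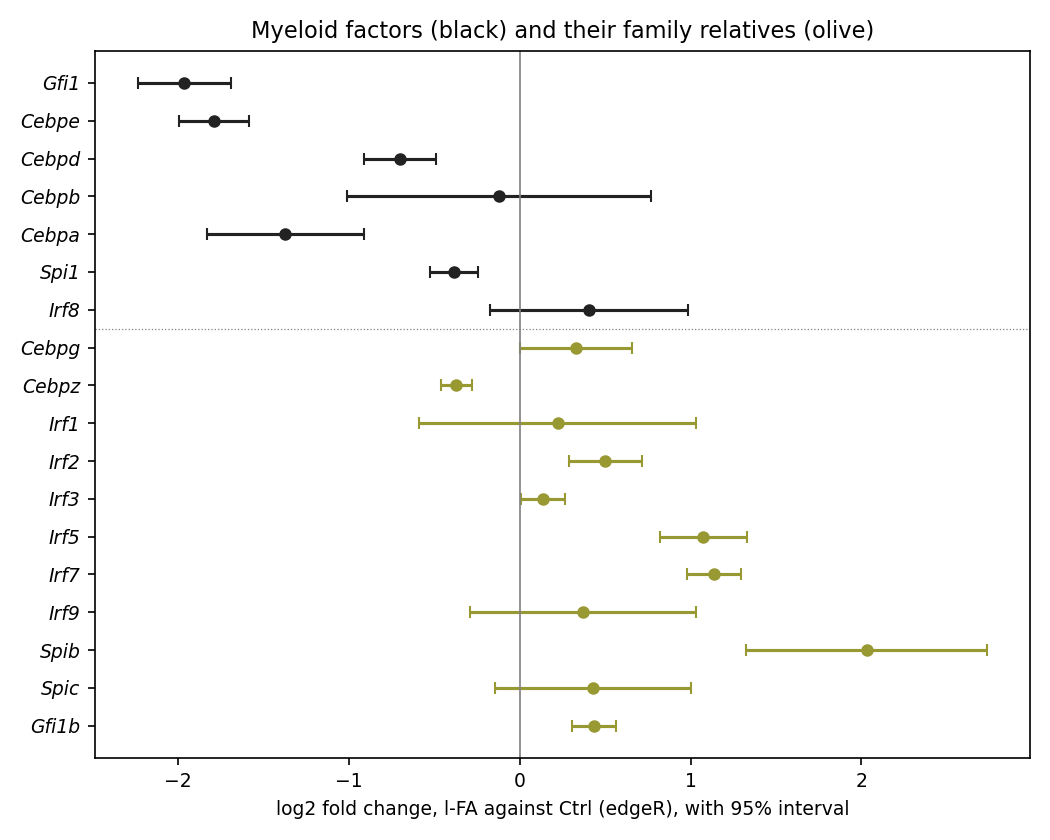
Log2 fold changes of l-FA against Ctrl with 95% intervals from edgeR, for the 7 members tested (black) and 11 genes grouped with them (olive). The grouping was by protein family or, for Cebpz, by name. Gfi1, Cebpe and Cebpa lie farthest to the left, and Spib, Irf7 and Irf5 farthest to the right.

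Factors that act upstream of the members or beside them showed no common direction. Of 16 such genes 4 rose, 2 fell and 10 did not pass, and the median log2 fold change was 0.09. The counts in this paragraph stand beside 25.5% of all genes tested called higher and 25.0% called lower. Runx1, which is needed to switch on Spi1, rose by 0.17 (SE 0.030, edgeR adjusted p = 0.00388), and Myb, a factor of progenitor growth, fell by 0.36 (SE 0.021, edgeR adjusted p = 4.97e-05). Gata2, a stem and mast cell factor, had a log2 fold change of 0.27 (adjusted p = 0.18 from edgeR). Of 13 antagonists and feedback genes tested, 6 rose, 3 fell and 4 did not pass, with a median of 0.32. Gata1, the erythroid factor that opposes PU.1, rose by 0.50 (SE 0.090, edgeR adjusted p = 0.00401). Trib1, whose protein directs C/EBP alpha to degradation, rose from 9.07 ± 1.39 to 16.1 ± 1.08 CPM (0.83 on the log2 scale, SE 0.13, edgeR adjusted p = 0.00194). Id3, an inhibitor of E proteins, rose by 1.14, and Id2 had a log2 fold change of 0.14 (adjusted p = 0.129 from edgeR). Of 8 later monocyte factors tested, 5 rose, 2 fell and 1 did not pass, with a median of 0.58. Klf4, a monocyte factor downstream of Irf8, had 32, 20 and 17 counts in Ctrl and 74, 70 and 67 in l-FA (1.53 on the log2 scale, SE 0.24, edgeR adjusted p = 0.00208). Egr1, an early-response factor that promotes monocyte genes, rose by 1.12 and Klf2 fell by 1.03. Egr2, a counter-player of Gfi1 named after its values were seen, had 13, 13 and 17 counts in Ctrl and 2, 1 and 3 in l-FA, and was called lower (edgeR adjusted p = 0.00102).

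Target and marker genes of the 2 fates differed in their changes. Whether the members act on these genes was not tested. Of 18 granulocyte target and marker genes tested, 17 fell, none rose and 1 did not pass, with a median log2 fold change of -1.54. Past the 2-fold limit were 16 of the falls. Among all genes tested, 25.0% were called lower, and 5.10% with the 2-fold limit. Mpo, Elane and Ms4a3, genes of early granulocyte progenitors, fell with log2 fold changes of -1.91, -2.82 and -2.72, and Ltf, a secondary granule gene that needs Cebpe, with -3.16. Csf3r, the receptor of granulocyte colony-stimulating factor and a C/EBP alpha target, fell by only 0.25 (SE 0.019, edgeR adjusted p = 0.000114). These values stand beside -1.96 for Gfi1 and -1.79 for Cebpe. The summed level of all 20 listed genes was 23618 to 24536 CPM in Ctrl and 6105 to 6412 in l-FA. The other 2 listed genes failed the filter on low counts and moved in opposite directions. Ly6g, which marks mature neutrophils, had 3, 6 and 8 counts in Ctrl and 0 in each l-FA library (edgeR adjusted p = 0.0168 without the filter). Itgb2l, an integrin gene of neutrophils that was likewise named after its values were seen, had 0 counts in each Ctrl library and 18, 11 and 7 in l-FA (edgeR adjusted p = 0.0106 without the filter). These genes are also the markers of granulocyte progenitors and neutrophils, which the sort for Sca-1+ cells without lineage markers or CD34 is designed to remove. Whether such cells contributed to the falls of the members was not tested.

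Of 20 monocyte target and marker genes, all tested, 8 fell, 6 rose and 6 did not pass, with a median of -0.18. Among all genes tested, 25.0% were called lower and 25.5% higher. Past the 2-fold limit were 5 of the falls, where 5.10% of all genes tested were called lower with that limit. The list is not particular to monocytes, since the paper uses Mac-1, the product of its gene Itgam, to mark myeloid cells as a whole. The summed level was 1327 to 1384 CPM in Ctrl and 1140 to 1182 in l-FA. Csf1r, the receptor of macrophage colony-stimulating factor and a classical PU.1 target, rose by 0.10 (SE 0.031, edgeR adjusted p = 0.0363), but passed in only 1 of the 6 fits that left out a library. Csf2ra, the granulocyte-macrophage colony-stimulating factor receptor chain, fell by 0.88 (SE 0.13, edgeR adjusted p = 0.00197). The largest falls were in Adgre1, Fcgr3, Ly6c2 and Cybb, from -3.08 to -1.46 on the log2 scale, of which Fcgr3 (an Fc receptor gene) also marks granulocyte-monocyte progenitors. The rises in this list were all under the 2-fold limit, with which 6.68% of all genes tested were called higher.

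**Figure D4:**
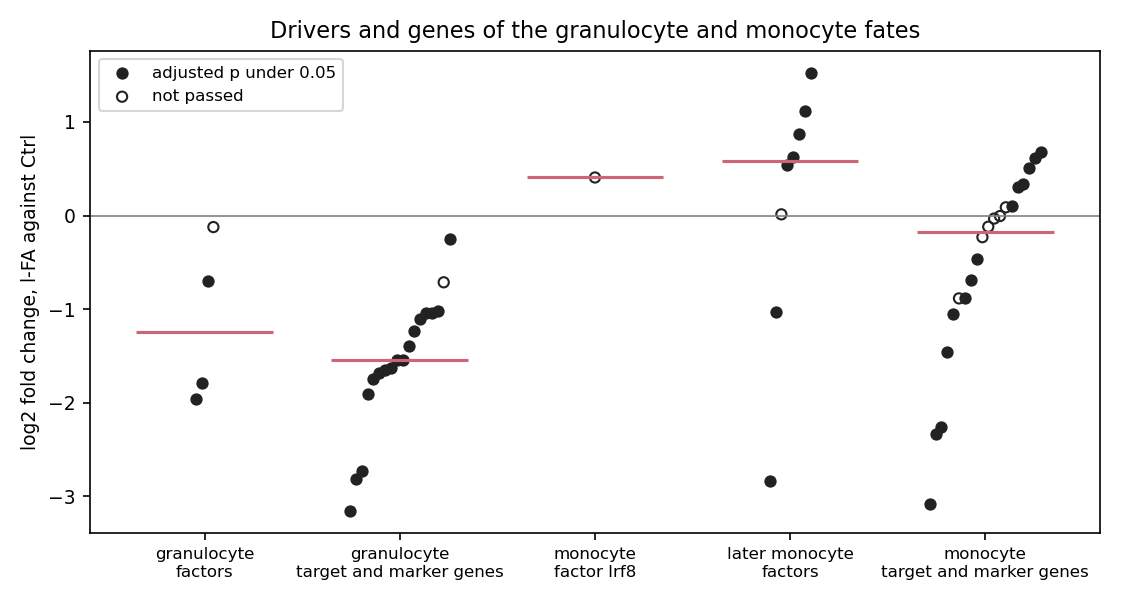
Log2 fold changes of single genes, l-FA against Ctrl, by list, with the list median as a red line and filled points for an adjusted p under 0.05. The granulocyte factors and the granulocyte target and marker genes lie below 0 (medians -1.25 and -1.54). Irf8 and the median of the later monocyte factors lie above 0, and the monocyte target and marker genes spread to both sides.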

How the data were processed

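RNA of sorted HSCs was amplified with the SMART-Seq HT kit and sequenced (3 Ctrl and 3 l-FA libraries). Per gene, the deposited table holds whole-number counts, which the authors did not normalize, and FPKM values scaled by gene length and library size. The submitters' processing notes name HISAT2, SAMtools 1.3.1, StringTie, edgeR and GRCm39; gene annotation and counting options are not given in the sources used here, and the kit does not mark strand.

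Counts were tested with edgeR 4.0.16 (R 4.3.3; TMM, glmQLFit, glmQLFTest) and p-values were adjusted by Benjamini-Hochberg across the 16520 genes that filterByExpr kept, and the same code was tested on simulated data. Standard errors came from the log2 fold change and its F value. The paper's methods name DESeq2, used here (1.42.0) as an alternative. FPKM served only to order levels. Ratios had 0.5 counts added and were compared by exact permutation. Amplified reads are not independent molecules.

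The members and gene lists were chosen with earlier results of these data known. Genes were named as members, fixed regulators and receptors, or up to 4 largest changes past both thresholds per list with a mean of at least 20 counts. Cd34, Flt3, Ly6g, Itgb2l, Cebpg and Cebpz were named after their values were seen, like those so marked. Replicate numbers are shared between groups, but nothing pairs them. Other alternatives were RLE, upper-quartile and total-count scaling, other filters, a replicate block and each library left out. 1 gene is not reported here and was left out of its list, and 3 further list genes (1 C/EBP relative with 2 identifiers, 1 B cell marker and 1 T and NK cell marker) were not used here.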

Additional observations from a re-analysis of the deposited data

How the results depend on the processing

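The 5 falls kept their direction and passed under DESeq2, RLE, upper-quartile and total-count scaling, both other filters, the replicate block and removal of each library, with log2 fold changes from -2.07 to -1.89 for Gfi1, -1.83 to -1.71 for Cebpe, -1.62 to -1.24 for Cebpa, -0.74 to -0.61 for Cebpd and -0.42 to -0.30 for Spi1. Requiring a fold change above 2 left 3 members. Irf8 passed under none of the 13 alternatives that gave it a value (log2 fold change 0.15 to 0.58, adjusted p 0.0886 to 0.338), and was closest to passing with the replicate block, at 0.46. Same-numbered libraries did not deviate together (correlations of 0.019, -0.013 and -0.050 over genes), and the block gave 5 lower and 0 higher members, as without it. The Cebpb value changed sign with a library left out, ranging from -0.39 to 0.11 (0.11 without Ctrl library 1 and 0.03 without l-FA library 1), which its 6 to 13 counts per library allow. With at least 10 counts in every library Cebpb could not be tested, and Irf4 could be tested only without a filter. The ratios differed by -2.71 to -2.06 for Gfi1 to Irf8, -2.48 to -1.94 for Cebpe to Irf8 and -1.20 to -0.93 for Cebpa to Spi1. Of 19 gene lists, 2 changed the sign of their median under another scaling. They were the list of Cebpg and Cebpz and the erythroid markers, both with medians near 0.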

Other observations

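Markers of other blood lineages gave the following values, beside 25.5% of all genes tested called higher and 25.0% called lower. Of 14 HSC markers 9 rose, 1 fell and 4 did not pass (median log2 fold change 0.29), with Slamf1, a surface marker of HSCs, at 1.90. Of 6 megakaryocyte markers 4 rose and none fell (median 0.46, Gp9 at 1.41), and of 5 mast cell and basophil markers 3 rose and none fell (median 0.38). Of 8 erythroid markers 2 rose and 1 fell (median -0.06, 0.02 with total counts only), and of 5 dendritic cell markers tested 3 rose and 1 fell, with Itgax at 2.09. Of 5 markers tested that the sort gate should hold low, 3 rose and 1 fell. By mean FPKM, Cd34 went from place 295 in Ctrl to 214 in l-FA, and Flt3 from place 357 to 169. Of 3 B cell markers tested 1 rose and none fell, and Pax5, which defines B cells, had at most 1 count in a library. Of 2 T and NK cell markers tested, 1 rose and 1 fell.

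Closest to each fallen member by its centred log2 CPM over the 6 libraries, among 11433 genes with a mean of at least 100 counts, were Gm11505 for Gfi1 (Euclidean distance 0.257), Serpine2 for Cebpe (0.154), Dipk2a for Cebpa (0.184), Engase for Cebpd (0.0808) and Timm8a1 for Spi1 (0.0488). Gm11505 overlaps Mpo as listed. The 6 libraries form 2 separate groups, so these distances mostly describe the size of the difference between the groups.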
